A study of Gallus gallus with 28 samples.

Results

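The 36 proteasome genes of the chicken array were examined in a B-cell line that lacks Bruton tyrosine kinase (BTK), in 2 lines that carry human BTK in its place, and in the parental line. Members were genes whose platform symbol was single and began with PSMA, PSMB, PSMC, PSMD, PSME, PSMF or PSMG and a digit. The symbols picked 37 genes, measured by 58 probe sets, out of 13009 genes with a single symbol. One of them, PSMC3IP, is a cofactor of meiotic recombination and not a proteasome subunit. It was set apart, which left 36 genes and 57 probe sets. Each gene was represented by its brightest probe set by mean over the 28 arrays. By role the genes fell into 7 of the alpha ring, 6 of the beta ring, 5 base ATPases, 8 other subunits of the regulatory particle, 3 activators or inhibitors and 7 assembly chaperones.

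The proteasome is the protease that cuts proteins tagged with ubiquitin. Its core particle is a barrel whose outer alpha rings gate the entrance and whose inner beta rings hold the cutting sites. The regulatory particle sits on the barrel's end, recognises the tag, removes it and threads the substrate in with a ring of ATPases. Dedicated chaperones assemble both particles and leave the finished complex. In B cells the complex also clears inhibitors of NF-κB after antigen receptor signals, a pathway in which BTK, a kinase downstream of that receptor, takes part.

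DT40 is a chicken B-cell lymphoma line. B41-13 is a Btk knock out of DT40 reconstituted with human BTK, and B46-5 is a knock out reconstituted with kinase inactive human BTK. B7.10 is the Btk knock out, and DT40 itself has endogenous Btk. Each genotype was thus represented by 1 line, so genotype and other differences between the lines cannot be told apart. B7.10 and DT40 were each grown in 3 batches of fetal calf serum, as stimulated 6 h, unstimulated 24 h and unstimulated 6 h cultures, with 1 array per batch, and a stimulated 2 h culture was added in serum batch 1. B41-13 and B46-5 had 1 array for each of these 4 conditions, all in serum batch 1. Stimulation was with anti-IgM (M4), which engages the B-cell receptor. Every array held a pool of 10 repeated experiments. Where a group had 3 arrays, each came from a different serum batch. Unless serum batch was a block, the p-values there measure the spread between pools and serum batches together. In the fit of serum batch 1, each line and condition had 1 array. Its p-values measure departures from additive line and condition effects, in which interaction and noise cannot be told apart.

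Values are log2 RMA signals, so a difference of 1 is a doubling. Precision is set by how many arrays a group has. The median signal of an array lay between 4.37 and 4.50. Levels under 3.98 are called near background here. The 40% of probe sets with the lowest means over the 28 arrays lay under that level. It was set by rank and is no measured background. A gene was called where limma gave an adjusted p (Benjamini-Hochberg over 38382 probe sets) under 0.05. BTK, the targeted gene, averaged 5.84 ± 0.16 in B41-13 (SD, n = 4) and 5.25 ± 0.10 in B46-5 (n = 4). It averaged 4.99 ± 0.18 in B7.10 (n = 10), against 9.91 ± 0.35 in DT40 (n = 10). Its probe set belongs to a chicken array, and how well it reads human BTK was not tested. It was higher in B41-13 than in B46-5 by 0.59 ± 0.09 (adjusted p = 0.000121) and than in B7.10 by 0.71 ± 0.09 (2.13e-05), and it differed by 0.12 between B46-5 and B7.10 (0.577). All 6 B-cell markers found on the array were above 3.98, and the mean level of these 6 lay between 8.76 and 9.15 in both B7.10 and DT40. PAX5 was the dimmest of the 6, at a mean of 5.24. Of the 6, CD79B and IKZF3 were called higher and EBF1 and IKZF1 lower in B7.10 than in DT40. IKZF1, a lymphoid transcription factor, averaged 9.45 in B7.10 and 10.66 in DT40. Of 14 markers of T cells, myeloid cells, erythroid cells, thrombocytes and fibroblasts, CD4, CD28 and DCN were near background on all 28 arrays and LYZ on 27. CYBB was near background on 2 arrays, and the others were above 3.98 on all 28. Among those others, COL1A2 (6.87) and CSF1R (6.41) averaged above PAX5, and CD3E (4.87) and CD8A (5.22) below it. A level above 3.98 thus does not set the B-cell markers apart. Of the 14, 2 were called higher in B7.10 than in DT40 (CD3E and LYZ) and 2 lower (CYBB and BGN). The mean level of these 14 markers lay between 5.41 and 5.73 in B7.10 and between 5.84 and 6.00 in DT40. The probe set named CD3D, which is part of that mean, read 12.05, while CD3E, another chain of the same receptor complex, read 4.87, so the symbol CD3D may be wrong for it. CYBB, a myeloid oxidase gene, averaged 4.69 in B7.10 and 7.97 in DT40, and BGN, a matrix gene of fibroblasts, 4.90 and 7.91. The part of the B-cell and other markers in the line differences below was not tested. The labels of 5 arrays contradicted each other on line, time, stimulation or batch. They were the B7.10 stimulated 6 h arrays of serum batches 2 and 3, the stimulated 6 h arrays of B41-13 and B46-5, and the unstimulated 24 h array of B46-5. Titles were followed, and the adjusted p without these arrays is given for calls that ended without them.

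All 36 proteasome genes had levels above 3.98, the cut set by rank, and they varied little. The median SD of a proteasome gene over the 28 arrays was 0.126 log2, with a range of 0.0703 to 0.264. It was 0.179 over all 13009 genes. Among genes with a mean of at least 9 log2, 32 proteasome genes had a median SD of 0.119 and all 2350 genes one of 0.164. The lowest and highest array of a gene lay less than 0.5 log2 apart for 17 of 36 genes and less than 1 log2 apart for 35 of 36. Arrays are shown by gene in the map of deviations from each gene's mean.

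**Figure D1:**
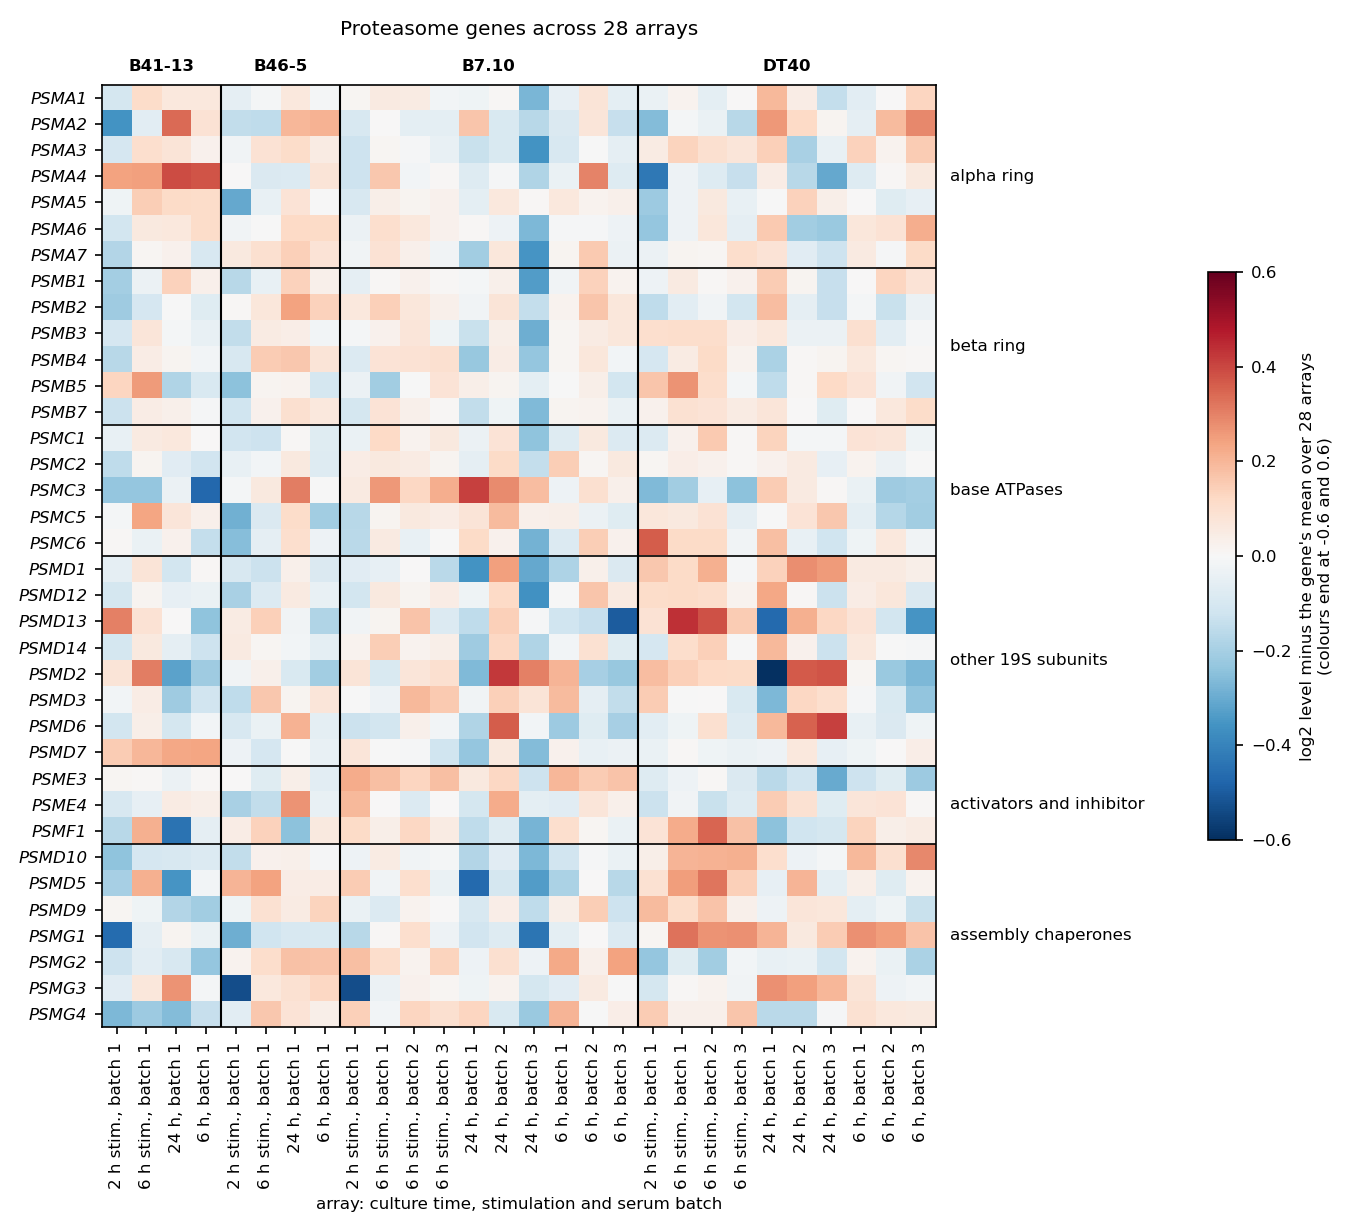
Each cell is 1 proteasome gene on 1 array, coloured by its log2 level minus the gene's own mean over 28 arrays, with genes ordered by role and arrays by line. Most cells are pale, that is near the mean, while B41-13 stands out for PSMA4, DT40 for PSMG1, and PSMD2 at 24 h has its lowest value in batch 1.

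The core particle had the lowest median SDs. The 7 alpha ring genes, PSMA1 to PSMA7, had mean levels of 10.56 to 12.81 and a median SD of 0.117. The widest of them was PSMA4, whose lowest and highest arrays were 0.82 apart. The beta ring genes PSMB1, PSMB2, PSMB3, PSMB4, PSMB5 and PSMB7 had mean levels of 6.66 to 12.09 and a median SD of 0.108. The widest, PSMB5, spanned 0.52 and was also the dimmest, at a mean of 6.66. The next dimmest, PSMB2, averaged 10.10. How well the probe set of PSMB5 reads its gene was not tested. PSMB5 encodes the chymotrypsin-like cutting site and PSMB7 the trypsin-like one. The array gave no single-symbol probe set for the caspase-like subunit PSMB6, the immunoproteasome subunits PSMB8, PSMB9 and PSMB10, the ATPase PSMC4, the subunits PSMD8 and PSMD11, or the interferon-induced activators PSME1 and PSME2, and these were not analysed here. PSMD4, a ubiquitin receptor, was present only on 4 probe sets shared with PIP5K1A and was left out.

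Within the regulatory particle, the ATPases PSMC1, PSMC2, PSMC3, PSMC5 and PSMC6, which unfold the substrate, had a median SD of 0.125. PSMC2 was the most even proteasome gene, with 0.30 between its lowest and highest arrays, and PSMC3 the widest ATPase, with 0.88. The other 8 subunits were the scaffolds PSMD1 and PSMD2, the lid subunits PSMD3, PSMD6, PSMD7, PSMD12 and PSMD13, and PSMD14, the enzyme that cuts off the ubiquitin chain. Their median SD was 0.144, and PSMD2 had the largest range of the 36 genes, 1.20. The activators PSME3 and PSME4, which cap the core in the nucleus, and PSMF1, first described as an inhibitor, had a median SD of 0.134. The chaperones of the core, PSMG1 to PSMG4, and of the ATPase ring, PSMD5, PSMD9 and PSMD10, had a median SD of 0.140.

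B7.10, the line without Btk, was compared with DT40. Averaged over the 3 conditions with 3 arrays each, 7 of 36 proteasome genes differed, 3 higher and 4 lower in B7.10. Over all probe sets 13.4% were called, 5.22% higher and 8.22% lower. With serum batch as a block 7 of 36 were called as well, with 15.4% of all probe sets. The largest of the 7 differences was 1.23-fold. In RNA of whole cultures, a change in the share of cells and a change per cell cannot be told apart. The core particle gave 0 of 13 calls at an adjusted p under 0.05, and the estimate of largest size there was that of PSMA3, -0.14. The assembly chaperones gave 4 of 7 calls, the base ATPases 1 of 5, the other regulatory subunits 1 of 8 and the activators 1 of 3. These counts by role were not tested against each other.

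PSMG1, which pairs with PSMG2 to start the assembly of alpha rings, was lower in B7.10. It read 9.12 at the lowest, 9.50 at the median and 9.66 at the highest of the 9 B7.10 arrays, against 9.62, 9.81 and 9.89 in DT40. The lines overlapped between 9.62 and 9.66, and B7.10 was the lower line in all 9 pairs of arrays of the same serum batch and condition. The difference was -0.30 ± 0.05 (SE, adjusted p = 0.000602, 1.23-fold lower), and by serum batch it was -0.33, -0.18 and -0.38. PSMG2, its partner, went the other way, at 10.17, 10.29 and 10.44 in B7.10 and 9.99, 10.15 and 10.22 in DT40. It was higher in B7.10 in all 9 pairs, by 0.17 ± 0.05 (adjusted p = 0.0376). The call for PSMG2 ended when any of 10 single arrays was left out (adjusted p up to 0.0919), and without the 2 B7.10 arrays of disputed label (0.112). Those arrays were the B7.10 unstimulated 6 h arrays of batches 1 and 3, the B7.10 24 h array of batch 2, the B7.10 stimulated arrays of batches 1 and 3, and the DT40 unstimulated 6 h arrays of batches 2 and 3, the 24 h array of batch 3 and the stimulated arrays of batches 1 and 2.

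The 2 chaperones of the ATPase ring that differed were both lower in B7.10. PSMD10, known in mammals as gankyrin, read 9.36, 9.59 and 9.68 at the lowest, median and highest array in B7.10 and 9.59, 9.82 and 9.92 in DT40. It was lower in all 9 pairs, by -0.21 ± 0.05 (adjusted p = 0.00377). PSMD5 read 9.17, 9.53 and 9.74 in B7.10 and 9.56, 9.67 and 9.96 in DT40, and was lower in 8 of 9 pairs. Its difference was -0.22 ± 0.06 (adjusted p = 0.0147), and a second probe set of PSMD5 gave -0.17 (adjusted p = 0.21). For both genes the highest B7.10 array was above the lowest DT40 array, so the lines overlapped. PSMD10 was no longer called when the disputed arrays were left out and serum batch was also a block (adjusted p = 0.0537).

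**Figure D2:**
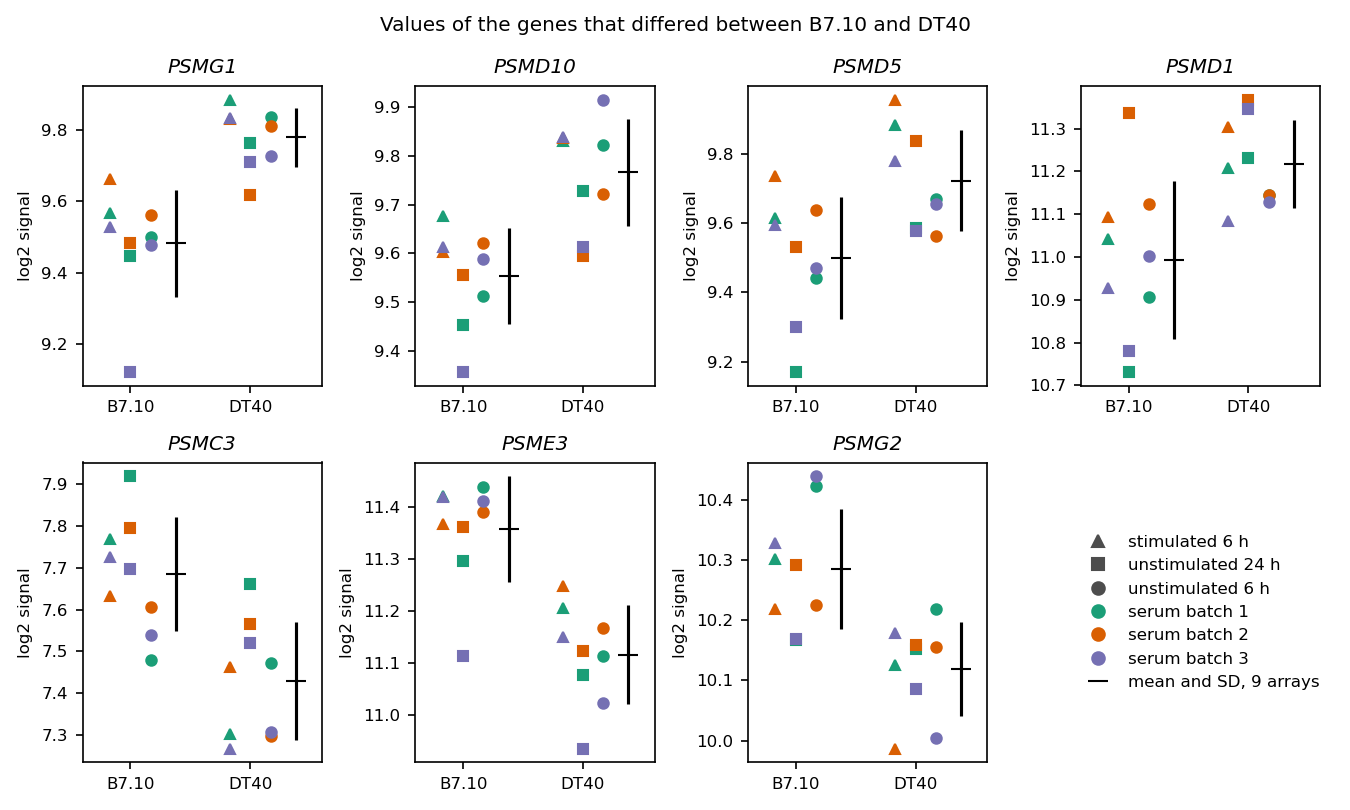
Log2 signal of the 7 proteasome genes called between B7.10 and DT40, 9 arrays per line, with symbols for condition, colours for serum batch and the mean with SD at the side. B7.10 sits lower in the first 4 panels and higher in the last 3, with some overlap of the arrays in every panel.

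In the regulatory particle PSMC3 was higher in B7.10. It read 7.48, 7.70 and 7.92 at the lowest, median and highest B7.10 array and 7.27, 7.46 and 7.66 in DT40. It was higher in all 9 pairs, by 0.26 ± 0.05 (adjusted p = 0.00166, 1.19-fold). The dimmer second probe set of PSMC3 gave -0.02 (adjusted p = 0.93), and the mean of both sets was not called (0.249). PSMD1, the largest scaffold subunit, read 10.73, 11.00 and 11.34 in B7.10 and 11.08, 11.21 and 11.37 in DT40. It was lower in all 9 pairs, by -0.22 ± 0.07 (adjusted p = 0.0451). That call rests on the edge of the threshold. It held when the DT40 24 h array of batch 1, the DT40 stimulated array of batch 3, or the B7.10 unstimulated 6 h or 24 h array of batch 2 was left out. It ended with any of the other 14 (adjusted p 0.0512 to 0.0977), with cyclic loess between arrays (0.0684) and without the disputed arrays (0.159).

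PSME3, the activator known in mammals for degrading nuclear proteins without ubiquitin, was higher in B7.10 on every probe set that carries its symbol alone. The brightest read 11.11, 11.39 and 11.44 at the lowest, median and highest B7.10 array, against 10.94, 11.12 and 11.25 in DT40. It was higher in all 9 pairs, by 0.24 ± 0.05 (adjusted p = 0.00174, 1.18-fold). Its other probe sets gave 0.45 (adjusted p = 0.00037) and 0.26 (0.049). The 3 lowest B7.10 arrays of PSME3 were those at 24 h.

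**Figure D3:**
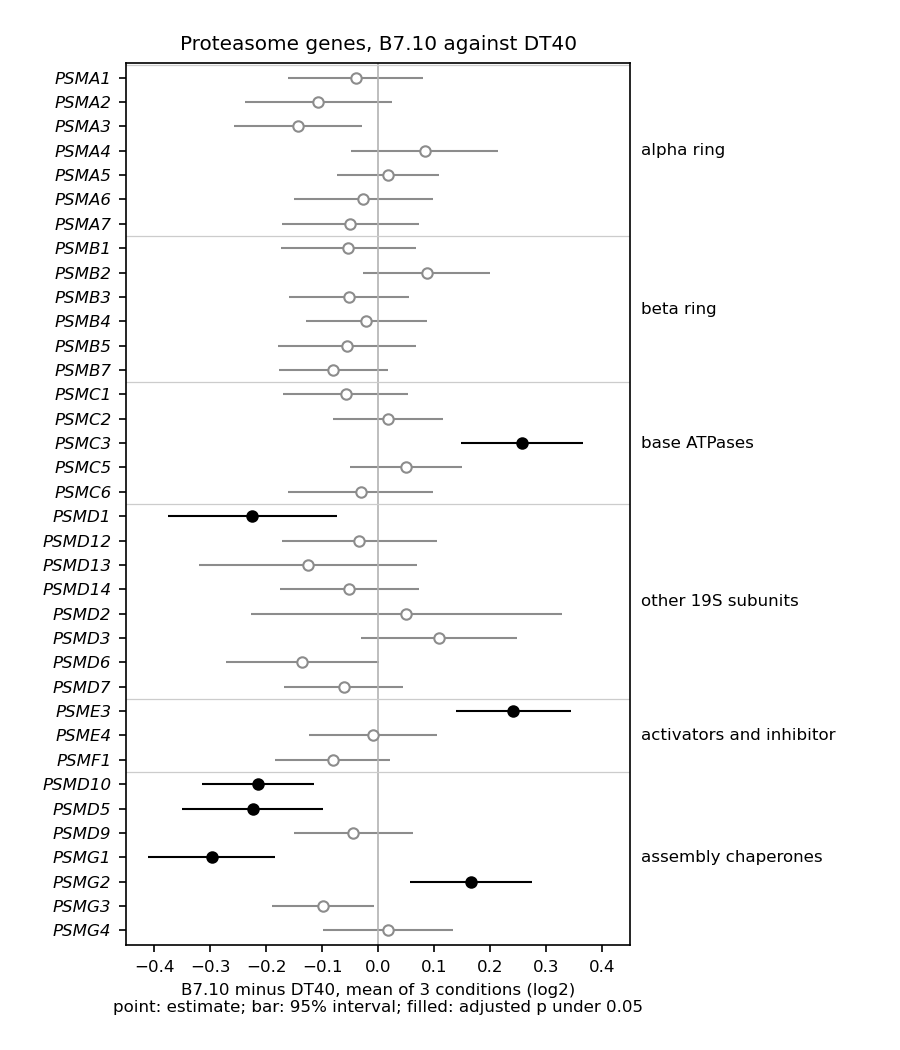
Difference of B7.10 from DT40 as the mean of 3 conditions, in log2, for each of 36 proteasome genes grouped by role, with 95% intervals and called genes filled. The intervals of all genes lie between -0.41 and 0.37, and filled points are found among chaperones, regulatory subunits and activators.

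For the 29 genes without a call the intervals bound what the arrays could have missed, as a p over the threshold does not show equal levels. Over all 36 genes the widest bounds were -0.41 and 0.37 log2. Those were set by the called genes PSMG1 and PSMC3, so they are only outer limits for the 29. In the core, where no gene was called, they were -0.26 and 0.22 for the alpha ring and -0.18 and 0.20 for the beta ring. Of the 36 estimates 25 were below 0, with a median of -0.05, against 44.2% below 0 and a median of 0.01 over all probe sets. That lean depended on the scaling: after cyclic loess between arrays, 18 estimates were below 0 and the median was -0.00. Without the B7.10 24 h array of batch 3 the median was -0.02. Same-sign pairs, 9 of 9, were seen for 6 of 36 genes, against 10.2% of all probe sets. None of the 36 had 9 B7.10 arrays wholly apart from 9 DT40 arrays, against 2.74% of all probe sets.

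Within single conditions few genes were called. In stimulated 6 h cultures PSMC3 was higher in B7.10 by 0.37 ± 0.09 (adjusted p = 0.0184, 1 of 36 genes, with 5.4% of all probe sets called). That call ended without the B7.10 or DT40 arrays of batches 1 or 3 in that condition (adjusted p 0.0773 to 0.0993) and without the disputed arrays (0.135). In unstimulated 24 h cultures 2 chaperones were lower in B7.10, PSMG1 by -0.35 ± 0.09 (adjusted p = 0.0389) and PSMG3 by -0.28 ± 0.08 (0.0433), with 4.44% of all probe sets called. PSMG3 pairs with PSMG4 in core assembly. Without the B7.10 24 h array of batch 3, PSMG1 had an adjusted p of 0.227 and PSMG3 one of 0.172, and after cyclic loess they had 0.0952 and 0.214. Without the disputed arrays they had 0.0629 and 0.0753. In fits without 1 array, the PSMG3 call was kept in 2 of 18 (without the B7.10 unstimulated 6 h array of batch 1 or the B7.10 24 h array of batch 2). The PSMG1 call was kept in 9 of 18, and lost also without the DT40 24 h arrays of batches 1 and 3, the DT40 unstimulated 6 h array of batch 2, any DT40 stimulated 6 h array, or the B7.10 stimulated 6 h arrays of batches 1 and 3. With serum batch as a block 3 genes were lower at 24 h, with 6.08% of all probe sets called. In unstimulated 6 h cultures only PSME3 was called, higher by 0.31 ± 0.09 (adjusted p = 0.0396), with 4.83% of all probe sets called, and that call was kept in 8 of 18 fits without 1 array. It was lost without any unstimulated 6 h or B7.10 stimulated 6 h array, or the DT40 stimulated 6 h array of batch 1 (up to 0.187), and without the disputed arrays (0.0698).

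The reconstituted lines, with active or kinase inactive human BTK, were compared with B7.10, with DT40 and with each other. These comparisons used the 16 arrays of serum batch 1, share lines with each other, and include the serum batch 1 arrays of the comparison above. B41-13 differed from B7.10 in 3 of 36 genes, with 10.8% of all probe sets called. PSMA4 was higher, and PSMC3 and PSMG4 were lower. B46-5 differed from B7.10 in 0 of 36 genes by limma's adjusted p, with 7.05% of all probe sets called, and 3 genes had an unadjusted p under 0.05, against 17.4% of all probe sets. Their adjusted p-values were 0.107 for PSMD5 (0.27), 0.12 for PSME3 (-0.19) and 0.284 for PSMA3 (0.14).

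PSMA4, a subunit of the alpha ring, was high in B41-13 in every condition. It read 12.00, 12.00, 12.15 and 12.13 in B41-13 at stimulated 2 h, stimulated 6 h, unstimulated 24 h and unstimulated 6 h. In the same order B46-5 read 11.76, 11.67, 11.67 and 11.84, B7.10 read 11.63, 11.92, 11.68 and 11.72, and DT40 read 11.32, 11.73, 11.80 and 11.68. All 4 arrays of B41-13 were above all 12 of the other lines. The differences of B41-13 were 0.33 ± 0.09 from B7.10 (adjusted p = 0.023), 0.34 ± 0.09 from B46-5 (0.0213) and 0.44 ± 0.09 from DT40 (0.00294, 1.35-fold). The call against DT40 held without any single array. Against B7.10 it ended without any of 6 arrays (adjusted p up to 0.0817), which were B41-13 or B7.10 arrays at stimulated 2 h, unstimulated 24 h and unstimulated 6 h, and against B46-5 without any of 5 (up to 0.0911), which were the B41-13 arrays other than stimulated 6 h and the B46-5 stimulated 6 h and 24 h arrays.

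PSMC3 was lower in B41-13 than in B46-5 and B7.10. In B41-13 it read 7.28, 7.28, 7.48 and 7.04 at stimulated 2 h, stimulated 6 h, unstimulated 24 h and unstimulated 6 h. In the same order B46-5 read 7.50, 7.57, 7.82 and 7.51, B7.10 read 7.56, 7.77, 7.92 and 7.48, and DT40 read 7.25, 7.30, 7.66 and 7.47. B41-13 was below B46-5 and B7.10 in each of the 4 conditions, while it overlapped DT40. The difference from B7.10 was -0.41 ± 0.08 (adjusted p = 0.00207, 1.33-fold lower) and held without any single array, and that from B46-5 was -0.33 ± 0.08 (0.0109). The difference from B46-5 ended without the B41-13 unstimulated 6 h array (adjusted p = 0.0598). The second probe set of PSMC3 gave -0.02 and 0.09 in these comparisons.

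PSMG4 was also low in B41-13, at 9.82, 9.87, 9.83 and 9.95 over the same conditions. It read 10.02, 10.25, 10.17 and 10.12 in B46-5, 10.23, 10.07, 10.22 and 10.29 in B7.10, and 10.24, 10.12, 9.93 and 10.18 in DT40. B41-13 did not overlap B46-5 or B7.10. It was lower than B7.10 by -0.34 ± 0.08 (adjusted p = 0.0114), a call kept without any single array, and lower than B46-5 by -0.27 ± 0.08 (0.0386). The call against B46-5 ended without any B41-13 array, the B46-5 stimulated 6 h or 24 h array or the DT40 unstimulated 6 h array (up to 0.16), and after cyclic loess (0.141). Other probe sets of PSMG4 gave -0.52 (adjusted p = 0.0013) and -0.22 (0.17) against B7.10.

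B41-13 differed from B46-5, its kinase inactive counterpart, in 4 of 36 genes, with 11.1% of all probe sets called: PSMA4 and PSMD7 were higher and PSMC3 and PSMG4 lower. PSMD7, the lid partner of PSMD14, read 11.47, 11.51, 11.55 and 11.55 in B41-13 and 11.28, 11.21, 11.31 and 11.27 in B46-5, over the same conditions, without overlap. The difference was 0.25 ± 0.08 (adjusted p = 0.0383), and a second probe set of PSMD7 gave -0.08. The call ended without any of these arrays other than the B41-13 stimulated 2 h and the B46-5 24 h array (up to 0.131). Without the 3 disputed arrays, which leave B46-5 with 2 arrays and B41-13 with 3, the count was 0 of 36, with adjusted p-values from 0.12 for PSMC3 to 0.552 for PSMG4. The direction of these 4 differences was the same in that fit.

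**Figure D4:**
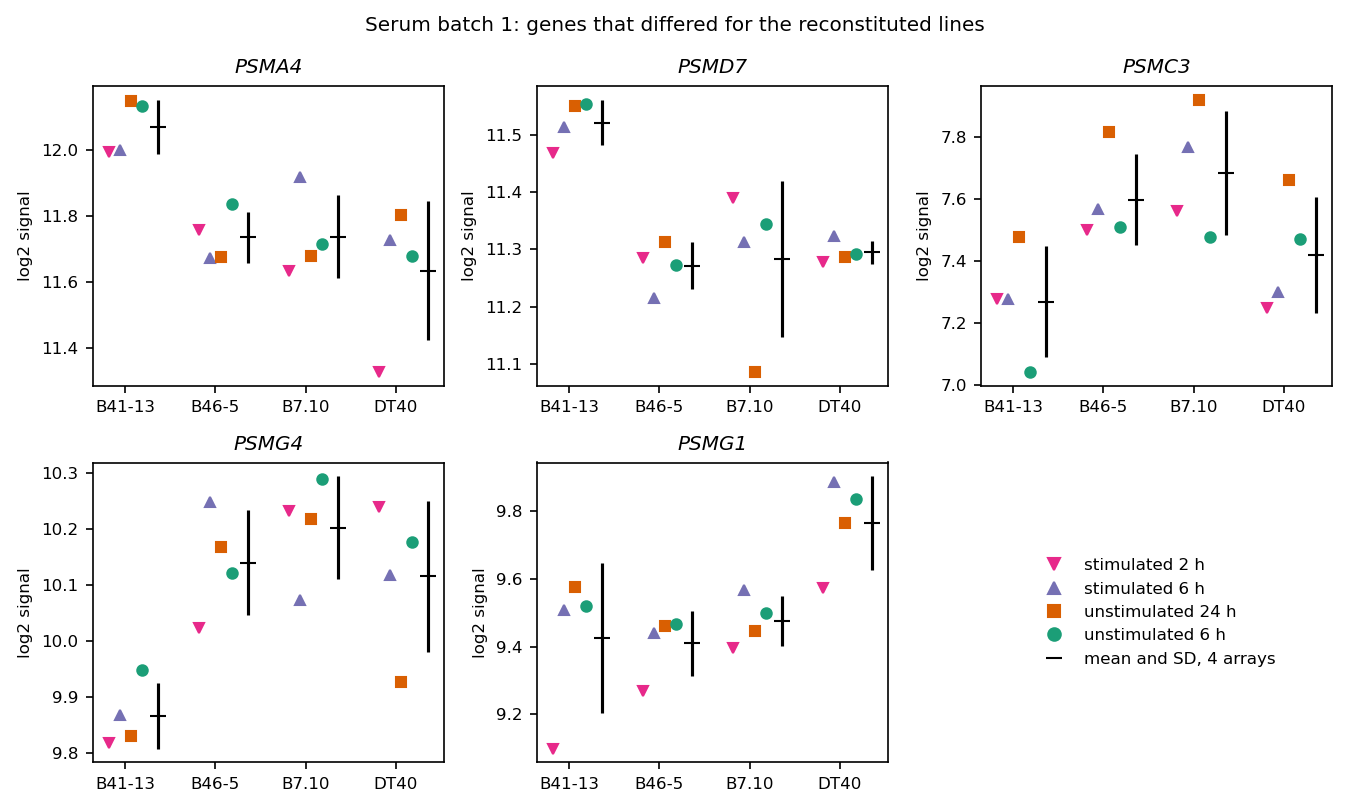
Log2 signal in serum batch 1 of 5 proteasome genes called for a reconstituted line, 4 arrays per line, with the mean and SD at the side of each. The mean of B41-13 is the highest for PSMA4 and PSMD7 and the lowest for PSMC3 and PSMG4, and that of DT40 is the highest for PSMG1.

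PSMG1, lower in B7.10 than in DT40, was lower than DT40 in both reconstituted lines too, in comparisons that share the DT40 arrays. PSMG1 averaged 9.43 ± 0.22 in B41-13, 9.41 ± 0.09 in B46-5 and 9.48 ± 0.07 in B7.10, against 9.76 ± 0.14 in DT40 (SD, n = 4 each). B41-13 was lower than DT40 by -0.34 ± 0.08 (adjusted p = 0.00476) and B46-5 by -0.36 ± 0.08 (0.00351), and both calls held without any single array. Without the disputed arrays the B46-5 call ended (adjusted p = 0.0966). PSMD10 was lower than DT40 in B41-13, by -0.26 ± 0.07 (adjusted p = 0.0203). That call ended without the DT40 stimulated or unstimulated 6 h array or the B41-13 stimulated 2 h or 6 h array (up to 0.0728), with cyclic loess (0.0557) and without the disputed arrays (0.0942). In all, B41-13 differed from DT40 in 3 of 36 genes (12.8% of all probe sets) and B46-5 in 1 of 36 (11.4%). PSMC3IP, the meiotic cofactor set apart, was lower in B41-13 than in B46-5 by -0.31 (adjusted p = 0.00868), than in B7.10 by -0.27 (0.0229) and than in DT40 by -0.25 (0.0303). Against B7.10 and DT40 the PSMC3IP calls ended without any B41-13 array other than stimulated 2 h, without 3 of the 4 arrays of the other line (up to 0.104), and after cyclic loess (0.0876 and 0.146). Without the disputed arrays all 3 PSMC3IP calls ended, with 0.353 against B46-5, 0.0741 against B7.10 and 0.0861 against DT40.

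Stimulation for 2 h was measured once per line, in serum batch 1. No unstimulated 2 h culture was analysed here, so stimulation and time in culture cannot be told apart in the comparison with unstimulated 6 h cultures. Over the 4 lines, 1 of 36 proteasome genes differed from unstimulated 6 h cultures, with 7.96% of all probe sets called. PSMG3 was lower by -0.34 ± 0.09 (adjusted p = 0.0268). The fall was uneven, with -0.06 in B41-13, -0.66 in B46-5, -0.47 in B7.10 and -0.19 in DT40. It ended without the stimulated 2 h or unstimulated 6 h array of B46-5 or B7.10 or the unstimulated 6 h array of DT40 (adjusted p up to 0.119), and after cyclic loess (0.0664). Against stimulated 6 h cultures, PSMG3 was lower by -0.33 ± 0.09 (adjusted p = 0.0308) and PSMG1 by -0.27 ± 0.08 (0.0385), with 7.16% of all probe sets called. After cyclic loess these had 0.137 and 0.143, and fits without 1 array kept them in 11 and 6 of 16. PSMG3 was lost without either stimulated array of B46-5 or B7.10 or the stimulated 6 h array of B41-13 (up to 0.129). PSMG1 was kept only without a 24 h array or the B7.10 unstimulated 6 h or stimulated 2 h array, and had up to 0.164 otherwise. Without the disputed arrays PSMG3 had 0.0533 against unstimulated and 0.266 against stimulated 6 h cultures, and PSMG1 had 0.184.

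At 2 h the core genes leaned down together, by little, and the lean of all 36 genes was smaller after cyclic loess. All 13 core genes had estimates below 0 against stimulated 6 h cultures, and so did 32 of 36 proteasome genes, with a median of -0.09. Over all probe sets 53% were below 0 and the median was -0.01. After cyclic loess 22 of 36 were below 0 and the median was -0.03. The core genes alone are not given after cyclic loess. Of the 36 genes, 16 were lower at 2 h than at stimulated 6 h in all 4 lines at once, against 15.4% of all probe sets. Against unstimulated 6 h, 10 of 36 were lower in all 4 lines, with 17.6% of all probe sets. The 10 included PSMA2 to PSMA7, PSMB1 and PSMB4.

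NFE2L1, the transcription factor known in mammals to raise proteasome genes when proteolysis is short (NRF1), was higher in stimulated 2 h cultures. It read 10.53 in B41-13, 10.87 in B46-5, 10.91 in B7.10 and 10.72 in DT40 at stimulated 2 h, against 9.78, 10.40, 9.97 and 10.13 in unstimulated 6 h cultures of the same lines. All 4 lines were higher at 2 h. The difference was 0.69 ± 0.09 (adjusted p = 0.000172) from unstimulated 6 h and 0.80 ± 0.09 (4.06e-05) from stimulated 6 h cultures, and both held without any single array and after cyclic loess. A dimmer probe set of NFE2L1 gave 0.41 (adjusted p = 0.0398), and the 2 dimmest gave 0.11 (0.735) and -0.04 (0.894), the last 2 at mean levels of 4.64 and 4.28. MAFF, a small partner protein of NFE2L1, was higher at 2 h by 0.60 ± 0.14 (adjusted p = 0.0128). The change of MAFF was 0.80 in B41-13, 0.26 in B46-5, 0.26 in B7.10 and 1.08 in DT40. The call for MAFF ended without the DT40 array of either condition or the B41-13 stimulated 2 h array (adjusted p 0.0503 to 0.0618). No proteasome gene was called higher at 2 h or, as given next, at 6 h after stimulation. Any link between NFE2L1 and the levels of the proteasome genes was not tested.

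At 6 h, stimulation changed 0 of 36 proteasome genes in B7.10 and 0 of 36 in DT40 by limma's adjusted p. Of all probe sets 0% were called in B7.10 and 0.0443% in DT40, so this comparison called little anywhere. At an unadjusted p under 0.05 there were 0 of 36 in B7.10 (16.7% of all probe sets) and 3 of 36 in DT40 (7.1%). With serum batch as a block, 1.6% of all probe sets and 0 of 36 members were called in B7.10. The largest 95% bounds were -0.38 and 0.62 in B7.10 and -0.44 and 0.79 in DT40. The response differed between the lines for 0 of 36 genes (0.00261% of all probe sets), and 0 of 36 had an unadjusted p under 0.05, against 4.25%.

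PSMD13, a lid subunit, had the smallest p of the 6 h response in DT40. It was higher in stimulated cultures by 0.14, 0.31 and 0.42 in B7.10 and by 0.35, 0.50 and 0.51 in DT40 over serum batches 1, 2 and 3. It was also higher by 0.33 in B41-13 and 0.32 in B46-5, so that all 8 pairs of arrays pointed up. In these pairs, the stimulated arrays of B7.10 batches 2 and 3, B41-13 and B46-5 had disputed labels. The estimate was 0.29 ± 0.16 in B7.10 (adjusted p = 0.38) and 0.45 ± 0.16 in DT40 (0.599), and neither passed the test. The other probe sets of PSMD13 gave -0.18, -0.04 and 0.13 in B7.10 and -0.06, 0.27 and 0.01 in DT40, none called. The other genes with the smallest p were PSMC3 (0.17, adjusted p = 0.356) and PSMD5 (0.13, 0.556) in B7.10, and PSMD5 (0.24, 0.664) and PSMC5 (0.18, 0.691) in DT40. Like PSMD13, PSMD5 was higher in stimulated 6 h cultures in all 8 pairs on its brightest probe set. The dimmer second probe set of PSMD5 was lower with stimulation in DT40 batches 2 and 3, B7.10 batch 2 and B46-5. It was higher in the other pairs. The share of all probe sets with the same sign in all 8 was not counted.

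**Figure D5:**
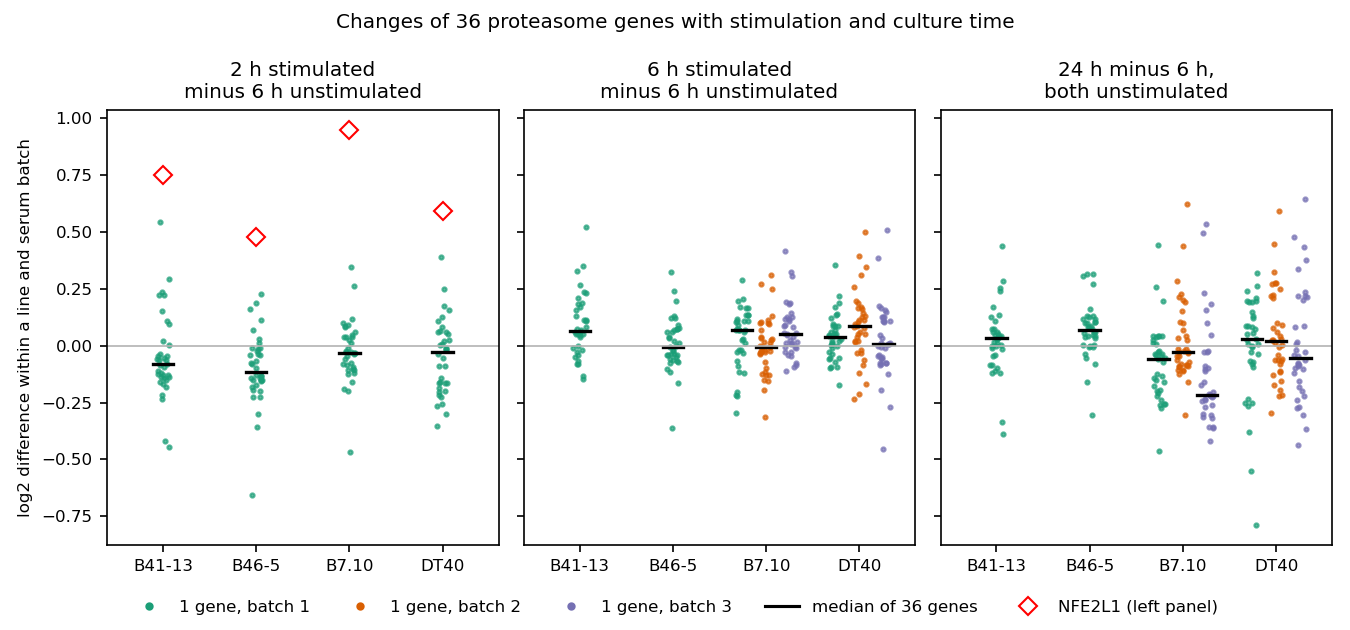
Each dot is the log2 change of 1 of 36 proteasome genes within a line and serum batch, with the median as a bar, for stimulated 2 h and stimulated 6 h against unstimulated 6 h cultures, and for 24 h against 6 h without stimulation. Medians lie close to 0, the lowest being -0.11 at 2 h (B46-5) and -0.21 at 24 h (B7.10 batch 3), and NFE2L1, drawn as a diamond, lies well above the median at 2 h in all 4 lines.

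Culture for 24 h in place of 6 h, without stimulation, also called 0 of 36 genes in B7.10 (0.232% of all probe sets) and 0 of 36 in DT40 (0.573%). At an unadjusted p under 0.05 there were 2 of 36 in B7.10 and 7 of 36 in DT40, against 12.9% and 13.2% of all probe sets. In B7.10 the smallest p-values were those of PSMC3 (0.26, adjusted p = 0.232), PSMF1 (-0.19, 0.343) and PSMA7 (-0.21, 0.393). In DT40 they were those of PSMD6 (0.37, adjusted p = 0.158), PSMG3 (0.23, 0.198) and PSMC5 (0.23, 0.238). PSMC3 was higher at 24 h in all 8 pairs of arrays, by 0.44 in B41-13, 0.31 in B46-5, 0.16 to 0.44 in B7.10 and 0.19 to 0.27 in DT40. PSMF1 was lower in all 8, by -0.39 in B41-13, -0.31 in B46-5, -0.09 to -0.26 in B7.10 and -0.16 to -0.38 in DT40. PSMC5 was higher in all 8. The dimmer second probe set of PSMC3 was lower at 24 h in DT40 batches 2 and 3 and B7.10 batch 3. In the other pairs it was higher. In these pairs, the 24 h array of B46-5 had a disputed label. The share of all probe sets with the same sign in all 8 pairs was not counted.

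The genes as a group leaned down at 24 h in B7.10, with 27 of 36 estimates below 0 and a median of -0.10, against 58.6% and -0.03 over all probe sets. The lean was smaller without 1 array. On the B7.10 24 h array of serum batch 3, 31 of 36 genes were below their own mean, with a median deviation of -0.20 against -0.04 over all probe sets. Without it the median of the 24 h change in B7.10 was -0.04, and after cyclic loess it was 0.01. The 24 h change differed between the lines for 0 of 36 genes (0.00521% of all probe sets, and 1 of 36 at an unadjusted p under 0.05, against 6.06%).

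PSMD2 is a scaffold that receives the substrate. Its change at 24 h was -0.47, 0.62 and 0.53 in B7.10 and -0.79, 0.59 and 0.64 in DT40 over serum batches 1, 2 and 3. In both lines the change was below 0 in batch 1 and above 0 in batches 2 and 3. It was -0.11 in B41-13 and 0.12 in B46-5, also in batch 1. A second, dimmer probe set of PSMD2 gave -0.24, 0.23 and 0.38 in B7.10 and -1.05, 0.11 and 0.36 in DT40. The interaction of batch and time has 1 array per cell and was not tested. As a main effect, serum batch called 0 of 36 genes (0.776% of all probe sets), with 2 of 36 at an unadjusted p under 0.05, against 16.9%. The smallest adjusted p-values were 0.268 for PSMD1, 0.294 for PSMD5 and 0.334 for PSMD6.

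Genes that work beside the proteasome were taken from 3 lists. Of 11 cofactors found, 1 was higher and 1 lower in B7.10 than in DT40, where 13.4% of all probe sets were called. UCHL5, a ubiquitin protease of the regulatory particle, was higher by 0.22 ± 0.07 (adjusted p = 0.0429), a call that ended without any of 11 single arrays (up to 0.0949) and was kept without the DT40 24 h array of batch 1, the unstimulated or stimulated 6 h array of DT40 batch 2, the B7.10 24 h arrays of batches 2 and 3, or the B7.10 unstimulated array of batch 3 or stimulated array of batch 2 at 6 h. Without the disputed arrays UCHL5 had 0.091. UBE3C, a ubiquitin ligase that works on the proteasome, was lower by -0.34 ± 0.06 (adjusted p = 0.000449) on its brightest probe set, a call kept without any single array. In unstimulated 24 h cultures alone UBE3C was lower by -0.43 ± 0.11 (adjusted p = 0.0225), with 4.44% of all probe sets called. That call was kept in 15 of 18 fits without 1 array. Of 8 genes of the NFE2L1 axis, NFE2L2, its paralog known for oxidative stress responses, was lower in B7.10 by -0.41 ± 0.08 (adjusted p = 0.00208). Of 4 ubiquitin and shuttle genes found, RAD23B, which carries tagged proteins to the proteasome, was lower by -0.26 ± 0.08 (adjusted p = 0.0497), a call that ended without any single array (up to 0.114) other than the DT40 unstimulated 6 h array of batch 1, the DT40 24 h arrays of batches 2 and 3, the B7.10 24 h array of batch 1 and the B7.10 unstimulated 6 h array of batch 2. RAD23B had 0.219 without the disputed arrays and 0.081 after cyclic loess.

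In serum batch 1, UCHL5 was lower in B41-13 than in B7.10 by -0.43 ± 0.08 (adjusted p = 0.00144), kept without any single array. Of all probe sets 10.8% were called there, 7.05% for B46-5 against B7.10 and 11.1% for B41-13 against B46-5. Of 11 cofactors, 8 genes of the NFE2L1 axis and 4 ubiquitin genes, 1, 0 and 0 were called for B41-13 against B7.10. In the same order the counts were 0, 1 and 1 for B46-5 against B7.10, and 1, 2 and 1 for B41-13 against B46-5. RAD23B was lower in B41-13 than in B46-5 by -0.81 ± 0.10 (adjusted p = 1.94e-05), and in B46-5 higher than in B7.10 by 0.50 ± 0.10 (0.00308). NFE2L1 was lower in B41-13 than in B46-5 by -0.57 ± 0.09 (adjusted p = 0.000353), though not with its probe sets averaged (0.138). MAFF was higher in B46-5 than in B7.10 by 0.94 ± 0.14 (0.000184). UCHL5 and MAFF were lower in B41-13 than in B46-5, by -0.32 ± 0.08 (adjusted p = 0.0138) and -0.62 ± 0.14 (0.0060). Neither of these calls was kept without the disputed arrays (adjusted p = 0.1 and 0.298). Against DT40, with 12.8% of all probe sets called, B41-13 was lower for UBE3C (-0.47 ± 0.11, adjusted p = 0.00621), NFE2L2 (-0.35 ± 0.08, 0.00816) and RAD23B (-0.58 ± 0.10, 0.000581). NFE2L1 was lower there by -0.38 ± 0.09 (0.00921), but not called without the disputed arrays (0.0761) or with probe sets averaged (0.419). In B46-5, NFE2L2 was lower than in DT40 by -0.32 ± 0.08 (adjusted p = 0.0167), with 11.4% of all probe sets called. That call ended without the disputed arrays (0.402) or any of 5 single arrays (up to 0.0744). At stimulated 2 h, the core maturation factor POMP was lower than at unstimulated 6 h by -0.34 ± 0.09 (adjusted p = 0.0346) and UCHL5 by -0.32 ± 0.08 (0.0233). After cyclic loess these had 0.0936 and 0.0941. Both also ended without either array of B46-5, the B41-13 unstimulated array or the B7.10 stimulated array, POMP without the B41-13 stimulated array (up to 0.151) and UCHL5 without the B7.10 unstimulated array (up to 0.0995). None of the 23 cofactor, NFE2L1 axis and ubiquitin genes was called in the 6 h response or the 24 h change of B7.10 or DT40.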

How the data were processed

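RNA of 28 cultures had been hybridised to Affymetrix chicken arrays. The authors deposited log2 values for each probe set, which the submitters' processing notes call RMA output, with no version named. Of 38535 probe sets, 153 controls and reporters were dropped, leaving 38382. Symbols were read from the platform annotation, which can be old. One limma fit (version 3.58.1, R 4.3.3) covered B7.10 and DT40 in 3 conditions, 18 arrays with a mean for each of 6 groups and 12 residual degrees of freedom. A second covered serum batch 1, 16 arrays with additive terms for line and condition and 9 residual degrees of freedom. A moderated F test was used for serum batch. P-values were adjusted by Benjamini-Hochberg over all probe sets. Samples were grouped by title.

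The serum batch numbers pair the samples, since the labels describe a shared batch. Deviations from group means correlated between arrays of 1 batch with a median r of 0.122 over 45 pairs (-0.0530 to 0.446). Those of different batches had a median of -0.06 over 90 pairs (-0.336 to 0.280), and the ranges overlapped. Deviations cancel out within a group, so the second median largely follows from the first and adds no support for the pairing. The alternatives were serum batch as a block, cyclic loess between arrays, leaving out the 40% dimmest probe sets, trended and robust moderation, averaging a gene's probe sets, leaving out each array and leaving out the arrays with disputed labels. A fit without the disputed arrays and with the block was chosen after seeing the data. The tests were also tested on simulated data.

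Members and gene lists were chosen with earlier results of these data known. All 36 proteasome genes were accounted for. Statistics were given for members called in a comparison, or for the 3 with the smallest p where none was called. Related genes came from lists of cofactors, the NFE2L1 axis and ubiquitin genes, and only called ones were given with values.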

Additional observations from a re-analysis of the deposited data

How the results depend on the processing

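With serum batch as a replicate block, 7 of 36 proteasome genes differed between B7.10 and DT40, as without it. The disputed arrays left out with the block gave 4 calls. Leaving out 1 array gave 5 to 7 calls for the mean of 3 conditions, 0 to 1 for stimulated 6 h, 0 to 5 for 24 h and 0 to 2 for unstimulated 6 h. It gave 2 to 3 for B41-13 against B7.10, 0 to 1 for B46-5 against B7.10, 0 to 5 for B41-13 against B46-5, 2 to 4 for B41-13 against DT40 and 1 for B46-5 against DT40. It gave 0 to 1 for stimulated 2 h against unstimulated 6 h and 0 to 2 against stimulated 6 h. The 6 h responses, the 24 h changes and serum batch kept 0 calls under each alternative run.

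Beyond these, calls between B7.10 and DT40 in unstimulated 6 h cultures numbered 3 with a gene's probe sets averaged and 0 without the disputed arrays. At 24 h they numbered 1 with trended and robust moderation, 0 without the disputed arrays and 1 when the block was added to that. In stimulated 6 h cultures they numbered 2 with cyclic loess, 0 with averaged probe sets, 0 without the disputed arrays and 0 with the block added. B41-13 against B7.10 gave 5 calls without the dimmest probe sets, 5 with trended moderation and 5 with averaged probe sets, and B41-13 against DT40 gave 5, 5 and 6. B46-5 gave 1 against B7.10 with cyclic loess, 1 with trended moderation and 2 with averaged probe sets, and against DT40 2 with trended moderation, 2 with averaged probe sets and 0 without the disputed arrays. B41-13 against B46-5 gave 0 without the disputed arrays. Stimulated 2 h against unstimulated 6 h gave 0 with cyclic loess, 2 without the dimmest probe sets, 4 with trended moderation, 3 with averaged probe sets and 0 without the disputed arrays. Against stimulated 6 h it gave 0, 1 and 0 with cyclic loess, averaged probe sets and the disputed arrays left out. Cyclic loess turned 1 higher and 2 lower into 2 and 2 for B41-13 against B7.10 and into 2 and 1 against DT40, and 2 higher and 2 lower into 2 and 1 against B46-5. Except where the construction shows fewer arrays, the cause was not tested. Apart from serum batch as a block, the counts under these alternatives are given without the share of all probe sets called. A shift in calls over the whole table and a change in these genes therefore cannot be told apart.

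No gene given with a call reversed under these alternatives. Many calls near the threshold ended when any 1 of several arrays was left out. RMA made all arrays alike in distribution, so a shift of all genes together cannot be seen. Levels of different probe sets were described side by side but not tested against each other. B41-13 and B46-5 have 1 array per condition in 1 serum batch.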
